A study of Mus musculus with 24 samples.

Results

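The effect of the Flt3 internal tandem duplication (ITD) was measured in plasmacytoid dendritic cells (PDC) sorted from mouse spleen. It was taken from 4 of the 24 RNA sequencing libraries of the study: the ITD libraries and the WT libraries of the experiment batches A and B, 1 of each genotype per batch, compared as 2 pairs. ITD mice were Flt3 ITD/+ and WT mice Flt3 +/+. Both genotypes had the same hybrid background, the F1 generation of C57BL/6 and FVB/N parents. The sources used here give no ages. The other 20 libraries, of canonical (C_CD8) and non-canonical (NC_CD8) CD8+ dendritic cells and of the Esamhi and Esamlo fractions, entered the same model, where they served to estimate the spread between libraries. Each batch was an independent experiment per the series' design text, and whether a library came from 1 animal or pooled animals is not given in the sources used here. Of 39017 genes in the count table, 18093 passed the filter on low counts and were tested.

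Plasmacytoid dendritic cells are dendritic cells that sense viral nucleic acids through endosomal Toll-like receptors and release type I interferon. Their identity depends on the transcription factor TCF4 (E2-2). FLT3 is the receptor tyrosine kinase whose ligand drives the development of dendritic cells from bone marrow progenitors. The tandem duplication, common in acute myeloid leukemia, makes the receptor signal without ligand, and in leukemic cells it is known to act through STAT5 as well as through the MAP kinase and PI3 kinase pathways.

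The 4 PDC libraries held 17293819 to 22248404 counts. All 4 carried the markers of plasmacytoid cells. Siglech, a surface lectin of these cells, was at 4883 and 4871 CPM (the count scaled to a common library total) in the ITD libraries of batches A and B, against 5449.8 and 5242 CPM in the WT libraries. In the other subsets its group means ran from 6.23 to 267 CPM. Tcf4 stood at 1139.9 and 1464 CPM in ITD cells, against 1113 and 1267 CPM in WT cells. Neither marker differed by the test (log2 fold changes of -0.12 ± 0.16 and 0.13 ± 0.12, SE; adjusted p = 1 for both, edgeR's quasi-likelihood test).

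Ccr9, the chemokine receptor of mature plasmacytoid cells, was at 1523 and 916 CPM in ITD libraries, against 1992 and 1089 CPM in WT libraries, a difference smaller than that between the batches. Cox6a2, a muscle-type subunit of cytochrome c oxidase that marks plasmacytoid cells, was at 141 and 208 CPM in ITD libraries and 255 and 365 CPM in WT libraries. The Cox6a2 groups did not overlap, but the log2 fold change of -0.82 ± 0.18 did not pass the test (adjusted p = 0.111). Flt3 itself, whose duplication a gene count cannot show, was at 249 and 302 CPM in ITD cells and 327 and 305 CPM in WT cells (adjusted p = 0.824).

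Pancreatic acinar transcripts set the WT libraries apart and are treated as carry-over from neighbouring tissue. The digestive enzymes of the acinar list summed to 1.15 and 15.7 CPM in the ITD libraries of batches A and B, against 281 and 1607 CPM in the WT libraries. In the other 20 libraries the same sum ran from 1.37 to 5.88 CPM in ITD and from 3.24 to 40.3 CPM in WT samples. All 25 tested enzymes were lower in both ITD libraries than in both WT libraries, against 9.92% of all tested genes. Of the 25, 15 were called lower, against 0.133% of all tested genes. Enzymes almost absent from the other subsets, such as Pnlip, could pass the filter on low counts only through the WT plasmacytoid libraries. Their direction was in part fixed by that filter, so these counts describe the libraries and are no separate support. The pancreatic lipase gene Pnlip had 0 and 0.0578 CPM in ITD libraries and 12.7 and 108 CPM in WT libraries. The near-identical amylase copies Amy2a2, Amy2a3 and Amy2a4 shared all of their 50-base words with another copy and are not separate observations.

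Kallikrein genes, which stood on the same list, did not follow the digestive enzymes. The split of the list into families was made after its values were seen. The 10 tested kallikreins summed to 1501 and 1934 CPM in ITD cells, against 985 and 1339 CPM in WT cells, and to at most 7.16 CPM in any library of another subset. Klk1, a tissue kallikrein, held most of this sum, with 1078 and 1367 CPM in ITD libraries and 698 and 950.1 CPM in WT libraries. None of the 10 was called (median log2 fold change 0.58).

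Markers of other cells were also read. Plasma cell markers summed to 295 and 1601 CPM in ITD libraries, against 218 and 3472 CPM in WT libraries, and immunoglobulin segments to 2714 and 6226 CPM, against 2922 and 10207 CPM in WT libraries. These 2 sums were higher in batch B than in batch A in both genotypes. Stromal markers summed to 579.9 and 898 CPM in ITD libraries and 675 and 1082 CPM in WT libraries. B cell markers summed to 2247 and 3162 CPM in ITD cells and 2406 and 3315 CPM in WT cells. T cell markers summed to 1121 and 1116 CPM in ITD cells and 839 and 893 CPM in WT cells. Cd4, which plasmacytoid cells also express, made up most of that sum, at 924 and 929 CPM in ITD cells and 606 and 692 CPM in WT cells. Of the 13 T cell markers none was called, 10 had negative log2 fold changes and the median was -0.23. Of 13 genes of the mitochondrial genome, 12 were lower in ITD in both pairs, against 25.8% of all tested genes, and none was called. These genes lie on the same genome, and their counts are not independent. Y-linked genes were present in both batch A libraries (Ddx3y at 157 CPM in ITD, 214 CPM in WT) together with Xist (234 CPM in ITD, 91.9 CPM in WT). Both batch B libraries had Ddx3y at or below 0.212 CPM. The part of these other cells, or of the sex-linked reads, in the results below was not tested. In bulk RNA, fewer cells of a type and less RNA per cell cannot be told apart.

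**Figure D1:**
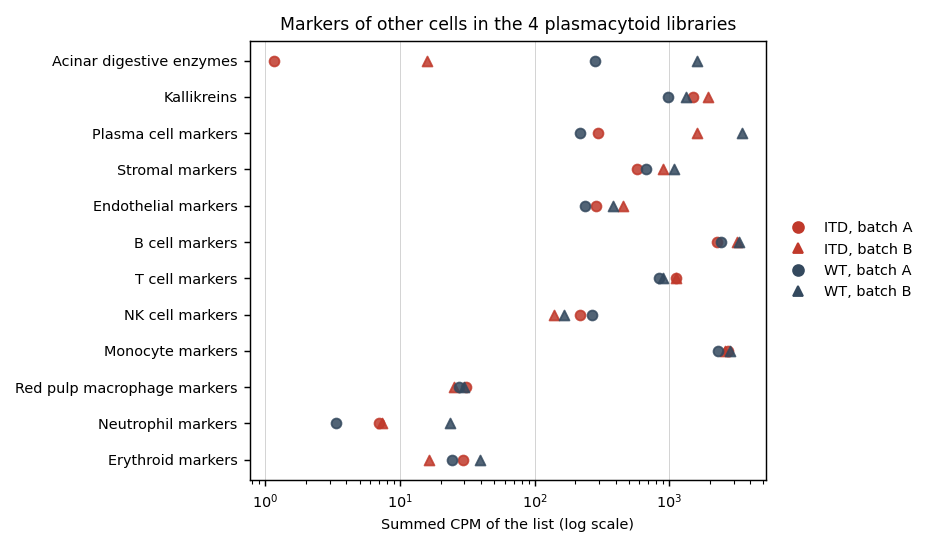
Summed CPM (log axis) of the marker genes of other cells in the 4 PDC libraries; red marks ITD and dark blue WT, circles batch A and triangles batch B. The acinar digestive enzymes lie at 1.15 and 15.7 CPM in the ITD libraries and at 281 and 1607 CPM in the WT libraries, and the kallikreins at 1501 and 1934 CPM in the ITD libraries and at 985 and 1339 CPM in the WT libraries.

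Few genes passed the test in plasmacytoid cells. In the paired fit 45 of 18093 genes were called at an adjusted p under 0.05 (0.249%), 21 of them higher (0.116%) and 24 lower (0.133%) in ITD cells. Of the 24 that fell, 16 stood on the acinar list. That left 29 genes, 21 that rose and 8 that fell (0.0443% of the genes tested outside the acinar list). In 23 of the 29 the groups did not overlap, against 8.69% of all tested genes with both ITD libraries above both WT libraries and 9.92% with both below. The same libraries chose the 29 genes, so this share describes them and is no separate support.

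These calls rest on the pairing by batch. Without the pair block 8 of the 29 were still called: Socs2, Gm9847, 1700025G04Rik, Cd40, Jup, Fcrl1, Chn2 and Btla. Where the acinar genes were removed before the fit, 19 of the 29 were called, because fewer small p-values entered the adjustment. The 10 that were lost had adjusted p-values up to 0.0716 there, and are Aire, Galc, Aurkb, ENSMUSG00000096334, Arhgap19, Chn2, Bcl6, Abcg1, Gbp2b and Ankrd50. With the pair of batch A left out, Socs2, Gm9847, Fscn1 and 1700025G04Rik were called among the 29, and with the pair of batch B left out, Socs2, Gm9847, Fscn1 and Jup were. DESeq2's Wald test with the same design called all 29.

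**Figure D2:**
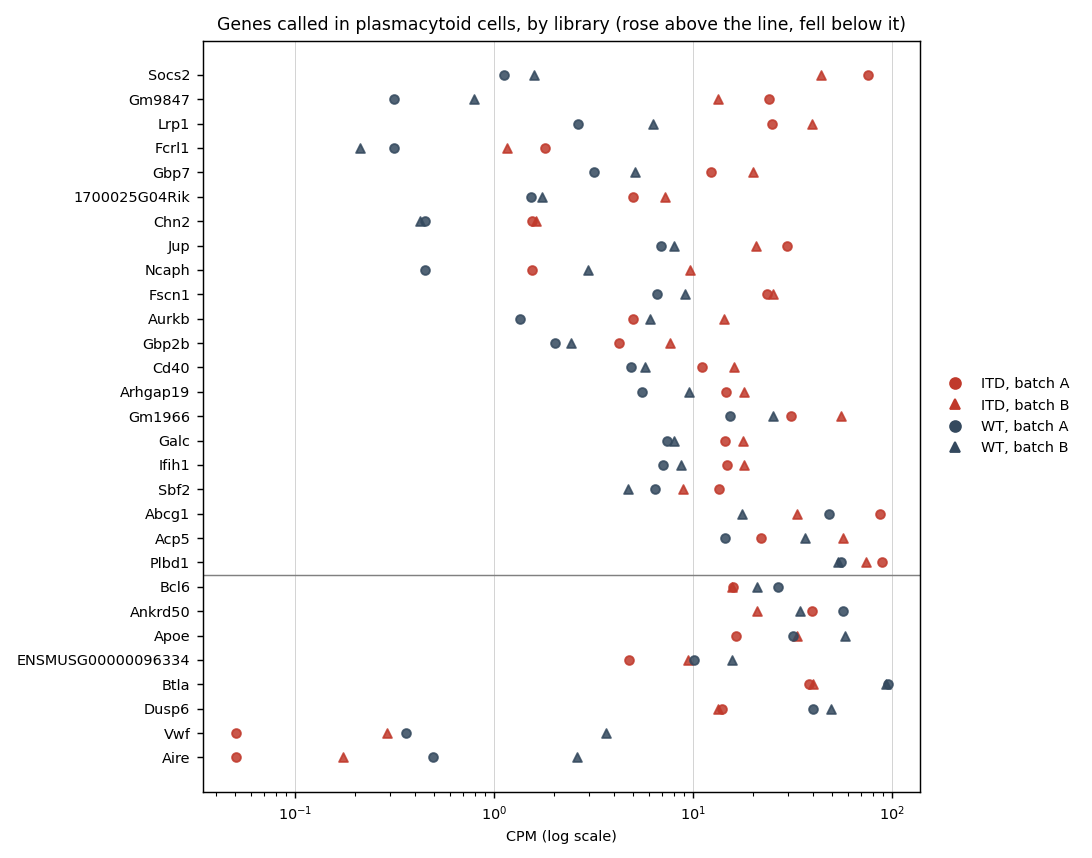
CPM (log axis) of the 29 genes called outside the acinar list, in each PDC library, ordered by fitted log2 fold change; red marks ITD and dark blue WT, circles batch A and triangles batch B. Socs2 at the top has 76.1 and 44.1 CPM in ITD cells against 1.12 and 1.59 CPM in WT cells, and for Ncaph, Aurkb, Abcg1, Acp5, Apoe and Ankrd50 the ITD and WT groups overlap although both pairs differ in the same direction.

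Socs2 rose most. It encodes a suppressor of cytokine signalling, an adaptor of a ubiquitin ligase that is itself induced by STAT5, and lies on the minus strand of chr10:95385362-95417180 (GRCm38). Its level was 76.1 and 44.1 CPM in ITD libraries, against 1.12 and 1.59 CPM in WT libraries. Both ITD libraries were far above both WT libraries, by 43.8-fold in the fit (log2 fold change 5.45 ± 0.33, adjusted p = 2.06e-05 with the pair block and 0.000305 without it). The processed pseudogene Gm9847 followed it, at 24 and 13.4 CPM in ITD cells and 0.315 and 0.796 CPM in WT cells. Since 76% of its 50-base words are shared with Socs2, its count is uncertain and cannot be read as a separate gene.

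Most other targets of STAT5 were not called. Of 18 tested genes on that list, Socs2 rose and Bcl6 fell, and the median log2 fold change was 0.12, against 0 over all tested genes. Cish, another SOCS family gene under STAT5, was at 2.06 and 2.37 CPM in ITD cells and 1.66 and 2.33 CPM in WT cells. Pim1, a survival kinase, had a log2 fold change of 0.63 ± 0.15 (adjusted p = 0.176). Bcl6, a transcriptional repressor that STAT5 represses in B cells, fell: it was at 16 and 15.8 CPM in ITD libraries and 26.7 and 21.1 CPM in WT libraries (log2 fold change -0.57 ± 0.10, adjusted p = 0.0388, and 1 without the pair block).

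Dusp6, the phosphatase that switches off ERK and is induced by it, fell. Its level was 14 and 13.4 CPM in ITD libraries and 40.3 and 49.2 CPM in WT libraries, with no overlap (log2 fold change -1.69 ± 0.22, adjusted p = 0.00592). Without the pair block its adjusted p was 1. It was the only called gene among 17 tested feedback genes of the MAP kinase pathway (median log2 fold change -0.14). Of the 17, 6 were lower and 2 higher in ITD in both pairs, against 25.8% and 25.0% of all tested genes. Positive log2 fold changes were found for 7, up to 2.20. The list summed to 1017 and 778 CPM in ITD libraries, against 876 and 909 CPM in WT libraries. Etv5, an ERK-induced transcription factor, was at 4.62 and 13.7 CPM in ITD cells and 10.2 and 31.4 CPM in WT cells (adjusted p = 0.411). Spry1, an inhibitor of receptor kinase signalling, was at 14.1 and 1.79 CPM in ITD cells and 25.4 and 6.16 CPM in WT cells (adjusted p = 0.48).

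No gene of the cytokine receptor list passed the test among 23. Csf2ra, the alpha chain of the GM-CSF receptor, came nearest, with 67.6 and 96.8 CPM in ITD cells and 49.2 and 76.7 CPM in WT cells (log2 fold change 0.41 ± 0.08, adjusted p = 0.0899). None of 16 FoxO targets was called either. Their directions were mixed: 9 had positive log2 fold changes, and the median was 0.06. In both pairs 5 were higher and 7 lower in ITD, against 25.0% and 25.8% of all tested genes. For 6 both ITD libraries were below both WT libraries, against 9.92% of all tested genes, and for none were both above. Among these 6 was Irs2, an adaptor of insulin signalling (log2 fold change -0.42 ± 0.11, adjusted p = 0.229).

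Genes of dendritic cell maturation rose in part. Fscn1, the actin-bundling protein fascin of mature dendritic cells (chr5:142960343-142973185, plus strand), was at 23.6 and 25.3 CPM in ITD libraries and 6.61 and 9.13 CPM in WT libraries. The fold was 3.16 (log2 fold change 1.66 ± 0.15, adjusted p = 0.000625; 0.399 without the pair block). Cd40, the receptor through which T cells license dendritic cells, was at 11.1 and 16 CPM in ITD libraries and 4.9 and 5.73 CPM in WT libraries (log2 fold change 1.35 ± 0.17, adjusted p = 0.00592; 0.00423 without the pair block). For both genes the groups did not overlap.

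With Socs2, which stands on the same list, 3 of 26 tested maturation genes rose and none fell (median log2 fold change 0.27). The other 23 were not called. Ccr7, the receptor that takes dendritic cells to lymph nodes, was at 137 and 33.1 CPM in ITD cells and 77.6 and 24.4 CPM in WT cells (adjusted p = 0.224). Cd86, a costimulatory ligand, was at 16.2 and 8.44 CPM in ITD cells and 12 and 9.92 CPM in WT cells. Il12b, the p40 chain of interleukin 12, had reads almost only in 1 library: 3.61 CPM in the ITD library of batch A and 0 in that of batch B, against 0.135 and 0.0531 CPM in WT libraries (adjusted p = 0.0896).

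Among 32 tested genes for ligands and cytokines that act on T cells, Btla was called. BTLA is an inhibitory receptor of lymphocytes and dendritic cells that binds HVEM. Btla (chr16:45224315-45257670, plus strand) was at 38.4 and 40.1 CPM in ITD libraries and 95.2 and 93.8 CPM in WT libraries, 2.39-fold lower with nearly no spread within a genotype (log2 fold change -1.26 ± 0.13, adjusted p = 0.00219; 0.0181 without the pair block). Its ligand gene Tnfrsf14, at 9.48 and 14.2 CPM in ITD cells and 11.8 and 17.2 CPM in WT cells, was not called. Ebi3, a subunit of interleukins 27 and 35, was at 11.6 and 14.3 CPM in ITD cells and 7.01 and 11.1 CPM in WT cells (adjusted p = 0.352).

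No antigen presentation gene passed the test. None of 17 tested MHC class II pathway genes was called, although 15 were higher in ITD in both pairs, against 25.0% of all tested genes, and in 7 both ITD libraries were above both WT libraries, against 8.69%. Cd74, the invariant chain, was at 12456 and 12706 CPM in ITD cells and 10839 and 11037 CPM in WT cells. H2-Eb1, a class II beta chain, was at 1258 and 1006 CPM in ITD cells and 960.2 and 849 CPM in WT cells (log2 fold change 0.33 ± 0.07, adjusted p = 0.111). Of 18 class I pathway genes, none was called and 11 were higher in both pairs. The genes of these lists share regulators, and their counts are not independent.

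Genes induced by interferon lay mostly higher in ITD cells, with 1 call. Of 43 tested members of the list, 1 rose, and the median log2 fold change was 0.53, against 0 over all genes. In 18 members both ITD libraries were above both WT libraries, in 1 below, and 33 were higher in both pairs, against 8.69%, 9.92% and 25.0% of all tested genes. Members of this list share regulators, and their counts are not independent. The summed level was 4583 and 5484 CPM in ITD libraries, against 3392 and 5007 CPM in WT libraries, and so differed more in batch A than in batch B. Ifih1, the cytosolic RNA sensor MDA5, was the called member: it was at 14.9 and 18 CPM in ITD cells and 7.06 and 8.76 CPM in WT cells (log2 fold change 1.07 ± 0.17, adjusted p = 0.021; 0.295 without the pair block).

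Other members had larger fold changes with more spread. Oas1a, an antiviral 2'-5' oligoadenylate synthetase, was at 11.5 and 13.9 CPM in ITD cells and 1.17 and 4.03 CPM in WT cells (log2 fold change 2.46 ± 0.50, adjusted p = 0.0916). Irf7, the master regulator of interferon genes in plasmacytoid cells, was at 621 and 585 CPM in ITD cells and 351 and 519 CPM in WT cells (adjusted p = 0.608). Samd9l was the member with both ITD libraries below both WT libraries, at 119 and 116 CPM in ITD cells and 131 and 139 CPM in WT cells. Interferon genes themselves had few reads: 2 of the list passed the filter, 7 type I or III genes had none in any PDC library, and Ifnb1 was at 0 and 0.694 CPM in ITD cells and at 0 in both WT libraries.

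Gbp7 and Gbp2b, which encode guanylate-binding proteins, are outside the list and rose. No list of GTPase genes was tested. Gbp7 was at 12.3 and 20 CPM in ITD libraries and 3.19 and 5.09 CPM in WT libraries (log2 fold change 1.97 ± 0.28, adjusted p = 0.0129; 0.595 without the pair block). It shares 12.7% of its 50-base words with the overlapping gene Gm43802. Gbp2b was at 4.27 and 7.69 CPM in ITD cells and 2.02 and 2.44 CPM in WT cells (log2 fold change 1.38 ± 0.25, adjusted p = 0.046; 0.347 without the pair block). The pseudogene Gm1966, which shares 17.5% of its words with the large GTPase gene Gvin1, was at 31.1 and 55.3 CPM in ITD cells and 15.3 and 25.4 CPM in WT cells (adjusted p = 0.00592). For Gbp7, Gbp2b and Gm1966 both ITD libraries were above both WT libraries.

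Promoter windows of 250 bases before to 50 bases after the start (RefSeq, GRCm38.p6) were found for 22 of the 29 called genes, 31 windows in all. Socs2 and Cd40 were among the called genes without a window, so their promoters were not searched. The windows were searched on both strands for a pair of GAAA runs 2 bases apart, the core of the element bound by interferon-activated factors. They were also searched for TTCNNNGAA, the core of the element bound by STAT5. The GAAA pair was found in 4 of the 31 windows, those of Gbp7, Gbp2b, Ifih1 and Gm1966, and in 3.44% of all 32851 windows. The Gm1966 window is at RefSeq's start, which lies upstream of and apart from the gene whose reads were counted (chr7:106596743-106604035, minus strand). TTCNNNGAA was found in 5 windows, of Gbp7, Lrp1, Ncaph and both windows of Bcl6, and in 8.3% of all windows. The 2 motifs overlap in none of these windows. The sequences of Gbp7, Gbp2b, Ifih1 and Bcl6 are shown because these genes stand on or beside the interferon and STAT5 lists; each is written 5' to 3' along the gene's strand, with matches in capitals. For Gbp7 (chr3:142530086-142530335, plus strand), Gbp2b (chr3:142594597-142594846, plus strand) and Bcl6 (chr16:23988853-23989102, minus strand) the 250 bases before the start are given. For Ifih1 (chr2:62646209-62646238, minus strand), whose match lies after the start, 30 bases around the match are given.
Gbp7: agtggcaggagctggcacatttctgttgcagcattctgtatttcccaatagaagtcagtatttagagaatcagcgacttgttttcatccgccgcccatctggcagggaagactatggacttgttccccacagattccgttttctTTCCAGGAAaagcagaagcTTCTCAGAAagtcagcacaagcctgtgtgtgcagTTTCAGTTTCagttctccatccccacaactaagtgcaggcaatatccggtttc
Gbp2b: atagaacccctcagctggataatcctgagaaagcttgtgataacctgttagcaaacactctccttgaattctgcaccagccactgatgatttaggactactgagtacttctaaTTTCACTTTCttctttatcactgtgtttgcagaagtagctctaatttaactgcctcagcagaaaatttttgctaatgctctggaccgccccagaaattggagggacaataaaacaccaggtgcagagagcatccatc
Ifih1: ctggagaagagaatcGAAACAGAAAccgat
Bcl6: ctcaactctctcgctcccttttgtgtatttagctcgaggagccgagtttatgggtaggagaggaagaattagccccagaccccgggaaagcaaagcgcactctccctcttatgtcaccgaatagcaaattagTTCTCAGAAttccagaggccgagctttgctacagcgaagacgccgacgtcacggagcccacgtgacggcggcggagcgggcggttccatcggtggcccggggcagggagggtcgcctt
Gbp7 holds TTCNNNGAA at 2 places and the reverse complement of the GAAA pair at 1, Gbp2b holds that reverse complement once, and Bcl6 holds TTCNNNGAA once in the window shown. These matches describe the sequence and do not show binding.

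Sensors of nucleic acids held no other call. Of 26 tested genes, Ifih1 rose and none fell (median log2 fold change 0.11), and in 6 both ITD libraries were above both WT libraries, against 8.69% of all tested genes. Tlr7, the sensor of single-stranded RNA, was at 369 and 311 CPM in ITD cells and 372 and 322 CPM in WT cells. Tlr9, the sensor of unmethylated DNA, was at 18.3 and 17.8 CPM in ITD cells and 14.8 and 16.1 CPM in WT cells (log2 fold change 0.23 ± 0.17, adjusted p = 0.981).

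**Figure D3:**
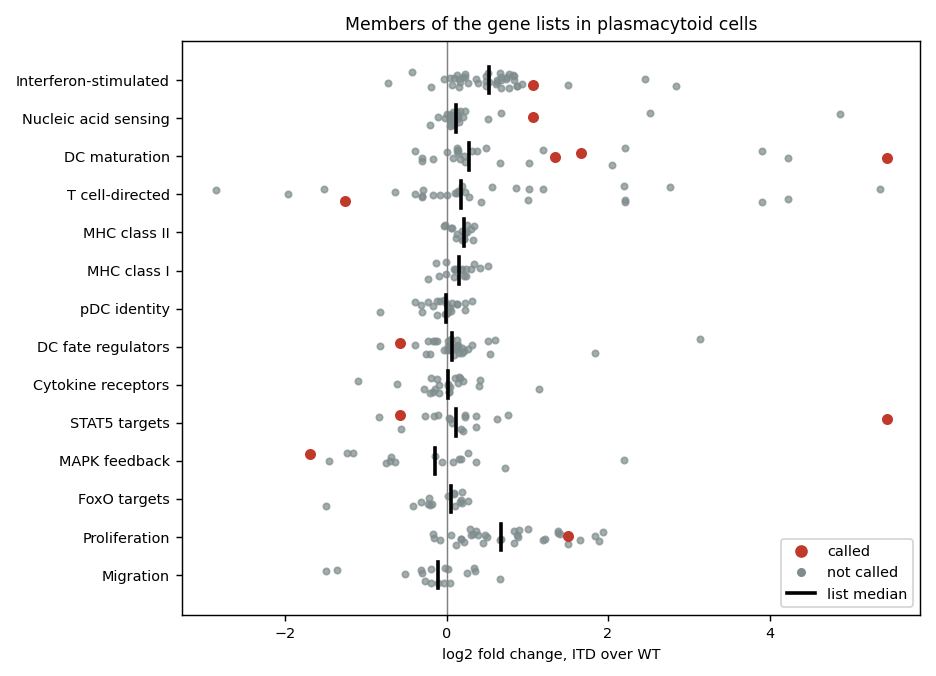
Log2 fold change (ITD over WT) of each tested member of the gene lists in plasmacytoid cells; red points are called, grey points are not, and the black bar is the list's median. The interferon-stimulated list has its median at 0.53 and the proliferation list at 0.67, the plasmacytoid identity list at -0.01.

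Cell cycle genes lay mostly higher in ITD cells within a pair. Of 35 tested members of the proliferation list, 1 rose and none fell, and the median log2 fold change was 0.67. In 26 members ITD was higher in both pairs and in none lower in both, against 25.0% and 25.8% of all tested genes. Members of this list are regulated together, and their counts are not independent. In 1 of the 35, the centromere protein gene Cenpf, the ITD group lay above the WT group, against 8.69% of all tested genes. Aurkb, the mitotic kinase Aurora B, was at 4.97 and 14.3 CPM in ITD cells and 1.35 and 6.05 CPM in WT cells (log2 fold change 1.51 ± 0.25, adjusted p = 0.0348; 1 without the pair block). Mki67, the proliferation antigen Ki-67, was at 10.2 and 37.3 CPM in ITD cells and 1.12 and 16.2 CPM in WT cells (log2 fold change 1.84 ± 0.42, adjusted p = 0.139).

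Ncaph, a subunit of the condensin complex that compacts mitotic chromosomes, is outside that list and rose as well. It was at 1.56 and 9.66 CPM in ITD libraries and 0.45 and 2.97 CPM in WT libraries, higher in both pairs with overlapping groups (log2 fold change 1.73 ± 0.25, adjusted p = 0.014; 1 without the pair block). Arhgap19, a GTPase-activating protein that acts in cell division, was at 14.7 and 18.1 CPM in ITD cells and 5.57 and 9.61 CPM in WT cells (log2 fold change 1.16 ± 0.20, adjusted p = 0.0365; 1 without the pair block). Pcna, the sliding clamp of DNA replication, was at 85.8 and 43.4 CPM in ITD cells and 84.6 and 56.4 CPM in WT cells.

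A further group of called genes handles lipids and lysosomal cargo. Lrp1 (chr10:127538161-127621148, minus strand), a large endocytic receptor for apolipoprotein E and many other ligands, was at 25 and 39.8 CPM in ITD libraries and 2.65 and 6.32 CPM in WT libraries. Its fold was 7.56 and the groups were well apart (log2 fold change 2.92 ± 0.36, adjusted p = 0.0056; 0.165 without the pair block). Apoe, which encodes that ligand, fell: it was at 16.5 and 33.4 CPM in ITD cells and 31.7 and 57.8 CPM in WT cells (log2 fold change -0.86 ± 0.13, adjusted p = 0.021; 1 without the pair block).

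Galc, a lysosomal galactosidase of glycolipids, was at 14.5 and 17.8 CPM in ITD cells and 7.37 and 8.07 CPM in WT cells (log2 fold change 1.07 ± 0.18, adjusted p = 0.0348). Abcg1, a cholesterol exporter, was at 86.7 and 33.4 CPM in ITD cells and 48.1 and 17.7 CPM in WT cells (adjusted p = 0.0428). Acp5, the tartrate-resistant acid phosphatase, and Plbd1, a phospholipase B-like protein, rose by log2 fold changes of 0.63 ± 0.10 and 0.59 ± 0.09 (adjusted p = 0.0256 and 0.0216). Of these, Abcg1, Acp5 and Apoe had groups that overlap, and the adjusted p of Galc, Abcg1, Acp5 and Plbd1 without the pair block was 0.896 or 1. No list of lipid genes was tested, and Abcg1, Acp5 and Plbd1 were chosen after their values were seen.

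Jup, the junction protein plakoglobin, was at 29.6 and 20.7 CPM in ITD libraries and 6.92 and 8.07 CPM in WT libraries (log2 fold change 1.75 ± 0.24, adjusted p = 0.01; 0.0181 without the pair block). The protein-coding gene 1700025G04Rik was at 5.02 and 7.23 CPM in ITD cells and 1.53 and 1.75 CPM in WT cells (log2 fold change 1.89 ± 0.20, adjusted p = 0.00219; 0.00102 without the pair block). For both, the ITD group lay above the WT group. Ankrd50, an ankyrin repeat protein of endosomal recycling, fell slightly, at 39.6 and 20.9 CPM in ITD cells and 56.7 and 34.3 CPM in WT cells (adjusted p = 0.0475; 1 without the pair block).

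The remaining called genes, and the pseudogenes Gm9847 and Gm1966 above, were chosen after their values were seen. Fcrl1, an Fc receptor-like protein of B cells, was at 1.81 and 1.16 CPM in ITD cells and 0.315 and 0.212 CPM in WT cells. Chn2, a GTPase-activating protein for Rac, was at 1.56 and 1.62 CPM in ITD cells and 0.45 and 0.424 CPM in WT cells. Sbf2 was at 13.5 and 8.9 CPM in ITD cells and 6.43 and 4.72 CPM in WT cells. Aire, the autoimmune regulator, and Vwf, an endothelial clotting factor, fell on few reads, 4 and 6 in the ITD libraries together against 60 and 77 in the WT libraries, most of them in the WT library of batch B, which also held most acinar reads. Aire lies antisense to Dnmt3l, and without strand the reads of the 2 genes cannot be told apart where they overlap. The ID ENSMUSG00000096334, with no symbol in the annotation, was at 4.77 and 9.48 CPM in ITD cells and 10.1 and 15.7 CPM in WT cells.

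The genes of plasmacytoid identity did not pass the test. None of 24 was called (median log2 fold change -0.01), and in 5 both ITD libraries were below both WT libraries, among them Siglech and Cox6a2, against 9.92% of all tested genes. In 1, Tlr9, both were above. Of 37 tested regulators of dendritic cell fate, Bcl6 alone was called. Spib, a transcription factor of plasmacytoid cells, was at 1254 and 818 CPM in ITD cells and 1421 and 1000.3 CPM in WT cells. Dntt, the terminal transferase of early lymphoid cells, was at 113 and 140.3 CPM in ITD cells and 168 and 172 CPM in WT cells, and none of 18 tested genes of the lymphoid past of these cells was called (median log2 fold change -0.24). Lists for chemokines, migration, secretion, glycolysis and the BCL2 family held no called gene (medians from -0.11 to 0.35).

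Most genes that rose are ones that the other 4 sorted subsets express more. In 20 of the 21, all but Galc, the WT mean in plasmacytoid cells was below the WT means of all 4 other subsets, against 29.3% of all tested genes. Of the 8 genes that fell outside the acinar list, 5 also had a WT mean below those of all 4 other subsets. This is a description, since the same WT libraries chose the genes. The marker of conventional dendritic cells Zbtb46 was at 3.86 and 6.48 CPM in ITD plasmacytoid libraries and 3.15 and 3.56 CPM in WT ones (adjusted p = 0.474), against WT means of 206 to 383 CPM in the other subsets. Its difference of 1.82 CPM between the ITD and WT means is 0.626% of its average level there.

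The same share was 1.29% for Chn2, 1.5% for Plbd1 and 2.08% for Fcrl1. It was 6.35% for 1700025G04Rik, 7.78% for Fscn1 and 11.3% for Cd40, between 11.6% and 98.1% for the other protein-coding genes that rose except Socs2, and 405% for Socs2. The Socs2 mean of 60.1 CPM in ITD plasmacytoid cells was above its mean in every other group, of which the highest was 47.7 CPM in ITD Esamhi cells. The lists for cDC1, cDC2 and common conventional dendritic cell identity summed to 1187 and 984, 3256 and 3739.8, and 1019.9 and 758 CPM in the ITD libraries, against 1236 and 1003, 3003 and 3557, and 994 and 818 CPM in the WT libraries. For cDC1 and cDC2 the sums and the medians of the members differ in direction. Of 18 cDC1 genes, 6 had both ITD libraries above both WT libraries and 1 both below, against 8.69% and 9.92% of all tested genes (median log2 fold change 0.18). Of 16 cDC2 genes, which include Cd4, 10 had negative log2 fold changes (median -0.10). Of 10 common genes, 2 lay above and 2 below (median 0.17). Btla was the called gene among the 3 lists. The part of admixed conventional dendritic cells in the genes that rose was not tested.

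More genes were called in the CD8+ subsets. In the same fit 215 genes were higher and 8 lower in C_CD8 cells (1.19% and 0.0442%), and 431 and 435 in NC_CD8 cells (2.38% and 2.40%). In Esamhi cells 8 were higher and 1 lower (0.0442% and 0.00553%), and in Esamlo cells 7 and 2 (0.0387% and 0.0111%). Of the 29 genes called in plasmacytoid cells outside the acinar list, 12 were also called in the same direction in NC_CD8 cells, 3 in Esamlo, 2 in C_CD8 and 1 in Esamhi cells. Fscn1 was the gene called in all 5 subsets. Socs2 rose in NC_CD8 cells (log2 fold change 2.98, adjusted p = 0.000102) and in Esamlo cells (1.93, adjusted p = 0.0453), with 0.77 in C_CD8 and 0.82 in Esamhi cells. Numbers of calls across subsets also follow the number of pairs, 3 in the CD8+ subsets and 2 in the others.

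The difference between the ITD effect in plasmacytoid cells and its mean over the other 4 subsets was tested for every gene. It passed for 19 genes (0.105%), 9 with a higher (0.0497%) and 10 with a lower (0.0553%) effect in plasmacytoid cells. Of these, 18 stood outside the acinar list, and the other was Ctrc. The plasmacytoid libraries came from batches A and B, the CD8+ libraries from B, C and D, and the Esam fractions from C and D. A difference between subsets therefore cannot be fully told apart from a difference between batches. Socs2 had the largest difference upward (3.83 ± 0.34 on the log2 scale, adjusted p = 0.002). Lrp1 (2.66 ± 0.39), Ncaph (1.97 ± 0.27), 1700025G04Rik (1.92 ± 0.21) and Aurkb (1.71 ± 0.27) also had higher effects, with adjusted p-values from 0.00572 to 0.0461. So did Stmn1, a microtubule regulator of dividing cells, which was not called in plasmacytoid cells alone (0.84 ± 0.17, adjusted p = 0.0856). Stmn1 shares sequence with the pseudogene Gm11223, 87.5% of whose words lie in it.

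Btla fell more in plasmacytoid cells than in the others (difference -1.06 ± 0.14, adjusted p = 0.0208), and Bcl6, which fell here, rose in NC_CD8 cells (difference -0.75 ± 0.11, adjusted p = 0.0251). For a second group the effect lay in the other subsets. Spib rose in ITD C_CD8 cells, to 21.2 CPM against 6.51 CPM in WT (log2 fold change 1.73, adjusted p = 5.62e-06), and in NC_CD8 and Esamlo cells, and was not called in plasmacytoid cells, where its level was highest (difference -1.02 ± 0.10, adjusted p = 0.00267). Cd209d, a C-type lectin, Plxdc2 and Tmem123, the last chosen after its values were seen, were also in this group: each rose in at least C_CD8 cells and had log2 fold changes of -0.20, -0.01 and -0.02 in plasmacytoid cells. Without the pair block 6 genes passed this test, 5 of them among the 19: Socs2, Gm9847, Fcrl1, 1700025G04Rik and Ctrc. Ctrc stands on the acinar list, whose transcripts are treated as carry-over. Among the 19, those no longer called included Btla (adjusted p = 0.216), Lrp1 (0.554), and Spib, Bcl6, Ncaph, Aurkb and Stmn1 (1 for each).

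**Figure D4:**
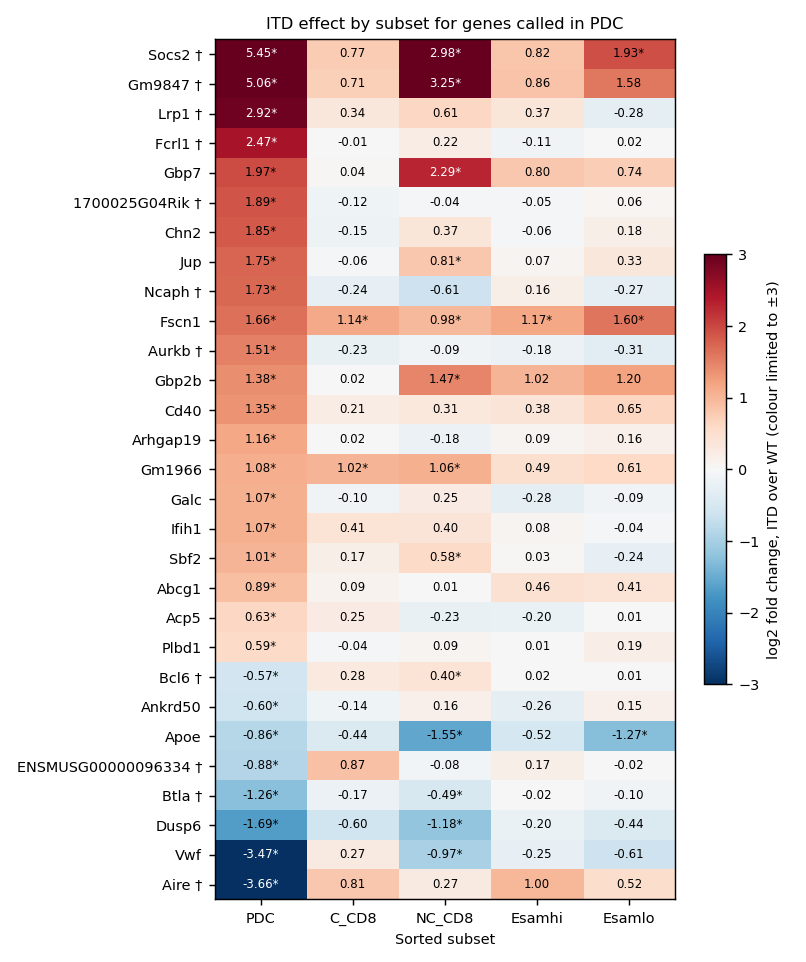
Log2 fold change (ITD over WT) in each of the 5 sorted subsets for the 29 genes called in plasmacytoid cells outside the acinar list; an asterisk marks an adjusted p under 0.05 in that subset and a dagger a difference between plasmacytoid cells and the mean of the other 4 subsets that passed its own test. Fscn1 has an asterisk in all 5 subsets, while Lrp1, Fcrl1, 1700025G04Rik, Ncaph and Aurkb are among those with one in PDC alone.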

How the data were processed

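RNA was measured by sequencing of sorted spleen cells in 24 libraries, 4 of them PDC. Per the labels' protocols, PicoPure columns, in part preceded by Trizol, gave the RNA. SMART-seq v4 reagents made the cDNA and a Clontech low input kit the libraries. Bcl2fastq 1.8.4, Bowtie2, DESeq2 1.8.2 and the build mm10 are named in the submitters' processing notes. For the read counter, annotation and strandedness nothing is stated. Raw read counts per Ensembl gene, as deposited by the authors, were analysed; the authors' normalized table was not used. The kits amplify cDNA without molecular identifiers, so amplified copies are counted as reads.

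Symbols came from GENCODE for GRCm38 (37607 of 39017 genes). R 4.3.3 with edgeR 4.0.16 fitted all 24 libraries with TMM scaling, filterByExpr (minimum count 10), a block for each of 12 pairs (a subset in a batch) and an ITD term per subset, with 7 residual degrees of freedom (common biological coefficient of variation 0.141). Pairing follows the labelled batch letters. Same-batch PDC libraries of both genotypes deviated together (r = 0.646 across genes). The fit treated the 12 pairs as independent, although some pairs of different subsets share a batch. Without the block 14 degrees of freedom were left (0.317). A gene was called at a Benjamini-Hochberg adjusted p under 0.05 over all tested genes, and ± after a log2 fold change is its SE. That SE was derived from the test, as the absolute log2 fold change over the square root of the F statistic. Replicate libraries differed beyond counting noise (chi-square per degree of freedom 76.3 in ITD, 86.3 in WT). Whether libraries came from separate animals is not stated, so p-values measure the spread between these samples.

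Genes were named by a rule: the 12 largest changes in each direction among called protein-coding genes at 5 CPM or more, moved alike in both pairs and not acinar; the 6 smallest p-values; called list members; markers; and the largest differences between subsets. Uncalled list members given as examples were chosen after their values were seen, as were those said to be. Gene lists and members were chosen with earlier results of these data known. Shared sequence was measured as 50-base transcript words found in another gene. The paired model was also run on simulated counts, drawn independently for each library from its own pair means and dispersions. Such counts follow the model and cannot show spread that it leaves out, or whether the block is right. Alternatives covered the block, PDC libraries alone, scaling and tests by DESeq2 1.42.0, the filter, the acinar list and each replicate. Plots used Python 3.11.15 with matplotlib 3.10.9.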

Additional observations from a re-analysis of the deposited data

Results flagged for a closer look

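For 19 genes the ITD effect in plasmacytoid cells differed from its mean over the other 4 subsets by a test of that difference (edgeR's quasi-likelihood contrast, adjusted p under 0.05). Igkv6-32, Ctrc, Gm11223 and Tmem123 were chosen after their values were seen. Differences are log2 fold changes, plasmacytoid minus the others. The effect was higher in plasmacytoid cells for Socs2 (3.83), its pseudogene Gm9847 (3.46), Lrp1 (2.66), Fcrl1 (2.45), Ncaph (1.97), 1700025G04Rik (1.92), Aurkb (1.71), Stmn1 (1.16) and the Stmn1 pseudogene Gm11223 (1.22). It was lower for Btla (-1.06), Bcl6 (-0.75), the ID ENSMUSG00000096334 (-1.12), Aire (-4.30), the acinar protease gene Ctrc (-8.06) and the immunoglobulin segment Igkv6-32 (-6.05). Igkv6-32 had 24 reads in the ITD plasmacytoid libraries together and 352 in the WT ones, 314 of them in batch B. The effect was also lower for Spib (-1.02), Cd209d (-1.32), Plxdc2 (-2.13) and Tmem123 (-0.70), whose log2 fold changes in plasmacytoid cells ran from -0.22 to -0.01. Plxdc2 was at 60.8 and 71.8 CPM in ITD plasmacytoid libraries against 61.7 and 73.1 CPM in WT ones, and averaged 1.5 CPM in ITD against 0.128 CPM in WT C_CD8 cells. Tmem123 rose in all 4 other subsets, by log2 fold changes from 0.38 in NC_CD8 to 0.91 in C_CD8 cells.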

How the results depend on the processing

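Each genotype had 2 plasmacytoid libraries, so that the spread was borrowed from other subsets and the calls depend on the pairing. The 45 genes called in plasmacytoid cells became 11 without the replicate block (9 of them shared), 129 with the plasmacytoid libraries alone and the block, 118 with DESeq2's Wald test, 96 with no filter on low counts and 19 with the acinar list left out, which removes 16 called genes from the adjustment. With the plasmacytoid libraries alone and no block edgeR called 0 genes. In the reported fit 1159 genes had an unadjusted p under 0.05. Leaving out 1 pair or 1 library gave 4 to 16 genes: 16 without the pair of batch A and 8 without that of batch B, and with no block 6 and 7 without the ITD library of batch A and of B, and 8 and 4 without the WT library of batch A and of B. The 19 differences from the other subsets became 6 without the block, 138 with DESeq2's Wald test and 91 with no filter, and 0 to 11 when 1 pair or library was left out. DESeq2's size factors and a minimum count of 50 kept both counts within 1.5 times. With the ITD library of batch A left out and no block Abcg1 had a log2 fold change of -0.0503, and with that of batch B left out Ncaph had -0.0319 and Acp5 -0.143; in each case the other genotype kept both batches. Socs2 kept its call in 13 of 14 alternatives and 1700025G04Rik in 12. A gene with under 3 counts in a library (0.135 to 0.173 CPM) is at the limit of detection.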
